A study of Mus musculus with 24 samples.

Results

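The genes described here are the 200 that had their lowest level in the thoracic aorta of Klotho-/- mice fed high magnesium, out of 41012 genes measured in 24 mice. They were chosen from the measured values themselves. For each gene, the median of log2(CPM + 1) was taken over the 6 mice of each group, where CPM is the gene's estimated read count per 1000000 counts of the library. The score of a gene was the smallest median of the other 3 groups minus the median in Klotho-/- mice on high magnesium. In all, 1096 genes scored at least 0.5, of which 205 were left out because they stood at least 0.5 above the other 3 groups in Klotho-/- mice on minimal magnesium. The 200 highest of the remaining 891 are the members. Every difference between Klotho-/- mice on high magnesium and another group was used by this choice, so those differences are given below as descriptions with no test. By the same measure, 287 genes were lowest by at least 0.5 in Klotho-/- mice on minimal magnesium, 224 in wild-type mice on high magnesium and 38 in wild-type mice on minimal magnesium.

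The study crossed genotype with diet in C57/BL6 mice, and each of its 4 groups held 6 mice. Wild-type and Klotho-/- mice received a diet with 0.05% magnesium by weight, called minimal, or 0.48%, called high, from birth, and the aorta was taken at 8 weeks of age. Wild-type mice on minimal magnesium were the study's control group. The labels name a knockout of Klotho with no promoter, Cre driver or cell type, they name each sample as a separate mouse, and they give no sex. All mice were housed alike.

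Klotho is a membrane protein made mainly in the kidney that serves as the coreceptor for FGF23, the bone hormone that makes the kidney excrete phosphate and lowers active vitamin D. Mice without Klotho develop high serum phosphate, age early and calcify their arteries. Calcification of the aortic wall involves the smooth muscle cells of the media and the elastic matrix that they make. Magnesium binds phosphate in the gut and slows the growth of calcium phosphate crystals, and it is studied as a dietary means against vascular calcification.

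The deposited tables carry strain-specific identifiers that the reference tables used here do not pair with gene symbols (0 of 41012 matched). No gene function could therefore be assigned to any member, no gene list was read, and neither the transcript of Klotho nor the defining markers of aortic cell types are analysed here. Members are named by their rank in the score, and the identifier is printed for the 2 of highest score.

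The libraries held between 9947455 and 18926802 counts. Over the 16741 genes tested, 2 of 6 libraries labelled wild-type on minimal magnesium lay nearer to the Klotho-/- mean of that diet than to their own, as did 1 of 6 the other way. Each mean here left out the library measured and also mice 4 and 20. The distances are therefore no independent check on those 2 mice. Mouse 4, labelled wild-type, lay a root mean square of 0.53 on the log2(CPM + 1) scale from the Klotho-/- mean and 0.86 from the wild-type mean. Mouse 20, labelled Klotho-/-, lay 0.45 from the wild-type mean and 0.72 from its own. Mouse 38, labelled wild-type, lay far from both, at 0.94 and 0.87. Results that rest on mice 4 and 20 are given with and without them. Beyond this, mice 1 to 18 and mice 20 to 40 differ in library total, and the labels do not say whether the numbers mark a batch.

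The highest score was 6.30, the next 3.25, and the median of the members was 1.26. A score of 1 is a 2-fold difference on the CPM + 1 scale. The score was 2 or more in 11 members, from 1.5 to 2 in 41, and from 1 to 1.5 in 148. The members of rank 199 and 200 scored 1.0003 and 1.0001, and the genes of rank 201 and 202 just outside scored 0.99995 and 0.9991. The edge thus falls in a continuous run of genes: the member of rank 200 had median levels of 19.5, 26.4 and 11.8 CPM in wild-type minimal, wild-type high and Klotho-/- minimal mice against 5.42 CPM in Klotho-/- high mice, and the gene of rank 201 had 47.3, 38.0 and 34.1 CPM against 17.0 CPM. A further 46 genes scored as high as the members but were left out for their level in Klotho-/- mice on minimal magnesium.

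Summed over all members, the share of library counts was lowest in the Klotho-/- mice on high magnesium, which follows from the choice. The 6 mice of that group held 1.05%, 1.25%, 1.02%, 2.43%, 2.09% and 1.74% (mice 11, 12, 13, 16, 31 and 32), a mean of 1.60% ± 0.583 (SD, n = 6). The shares were 3.44%, 3.51%, 3.55%, 4.84%, 5.46% and 6.23% in wild-type mice on minimal magnesium (mice 1, 4, 10, 23, 38 and 39). In wild-type mice on high magnesium they were 4.21%, 3.90%, 7.57%, 5.86%, 7.47% and 7.12% (mice 5, 9, 25, 26, 29 and 30). In Klotho-/- mice on minimal magnesium they were 4.95%, 5.75%, 5.55%, 6.47%, 5.76% and 5.33% (mice 18, 20, 35, 36, 37 and 40). The lowest of those 18 libraries thus lay above the highest of the 6, while the other 3 groups overlapped each other. Their means were 4.50% ± 1.19, 6.02% ± 1.64 and 5.63% ± 0.508 (SD, n = 6 each). In TPM, which divides by transcript length, the members held 2.57% ± 0.563, 3.47% ± 0.841, 3.29% ± 0.547 and 0.795% ± 0.323 in the same order of groups, ending with Klotho-/- mice on high magnesium. A tissue sample of many cells gives no way to tell fewer cells of a type from less RNA per cell.

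**Figure D1:**
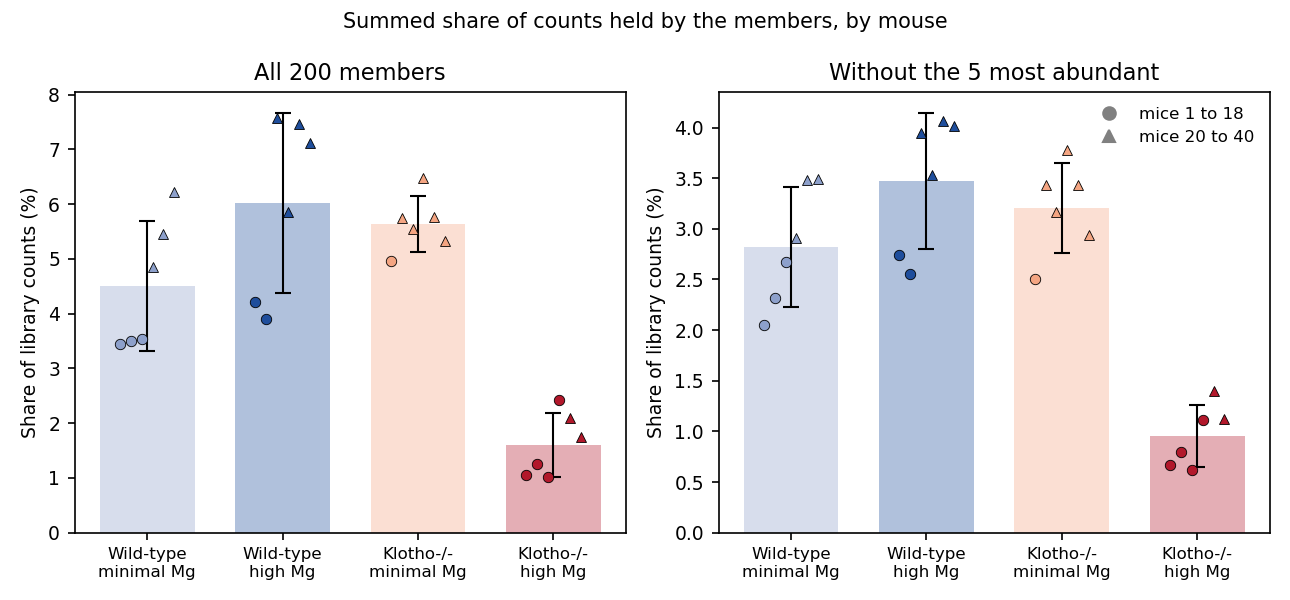
Share of each library's counts (percent, vertical axis) held by all 200 members (left) and by the members without the 5 most abundant (right), for the 4 groups. Points are mice (circles, mice 1 to 18; triangles, mice 20 to 40), bars are means and error bars are SD (n = 6); the Klotho-/- mice on high magnesium lie between 1.02% and 2.43% on the left, below the other 18.

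Across the members, the median difference in group medians was -1.44 on the log2 scale against wild-type mice on minimal magnesium, -1.81 against wild-type mice on high magnesium and -1.49 against Klotho-/- mice on minimal magnesium. These are levels 2.7-fold, 3.51-fold and 2.8-fold lower. The medians of the same differences over all 16741 genes tested were 0.06, 0.10 and -0.10. All 200 members passed the filter on low counts, beside 16741 of 41012 genes. A score of at least 1 sets a level in the other 3 groups that largely fixes this.

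Single mice show how far the groups separate. All 6 Klotho-/- mice on high magnesium lay below all 18 other mice for 64 of the 200 members, beside 1.21% of all genes tested, a count that the choice of members drives. For 49 members 5 of the 6 lay below all 18, and for 87 members 2 or more of the 6 did not. For 7 members none of the 6 did. By mean CPM, the members of rank 33 and 79 were highest in Klotho-/- high mice. Rank 33 averaged 45.2 CPM there, against 30.9, 24.7 and 21.85 CPM in wild-type minimal, wild-type high and Klotho-/- minimal mice. Rank 79 averaged 59.0 CPM, against 37.3, 44.7 and 7.08 CPM. Mouse 32 was highest of all mice for both, at 214.8 and 258.5 CPM. In mean log2(CPM + 1), Klotho-/- high mice stood below both wild-type groups for 200 members and below Klotho-/- minimal mice for 199. Group by group, the 6 lay below all wild-type minimal mice for 74 members (2.38% of all genes tested), below all wild-type high mice for 137 (4.78%) and below all Klotho-/- minimal mice for 134 (5.66%), counts that the choice of members drives too.

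The 6 mice differed among themselves. Mouse 13 lay below all 18 other mice for 183 members, mouse 11 for 179 and mouse 12 for 169, against 144 for mouse 16, 131 for mouse 32 and 105 for mouse 31. The choice of members drives these counts too, and the share of all genes is not given here for single mice. Over all genes tested, mice 31 and 32 stood above mice 11, 12, 13 and 16 by a median of 0.28 on the log2 scale, with 72.2% of genes higher. Mouse 31 had the highest level of the 6 for 95 members and mouse 16 for 44, whereas mouse 13 did so for 7. The median deviation of the members from the wild-type minimal medians was -1.92, -1.59, -1.76 and -1.26 on the log2 scale in mice 11, 12, 13 and 16, and -0.91 and -1.18 in mice 31 and 32. In the other 18 mice it ran from -0.43 (mouse 4) to 0.61 (mouse 29).

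**Figure D2:**
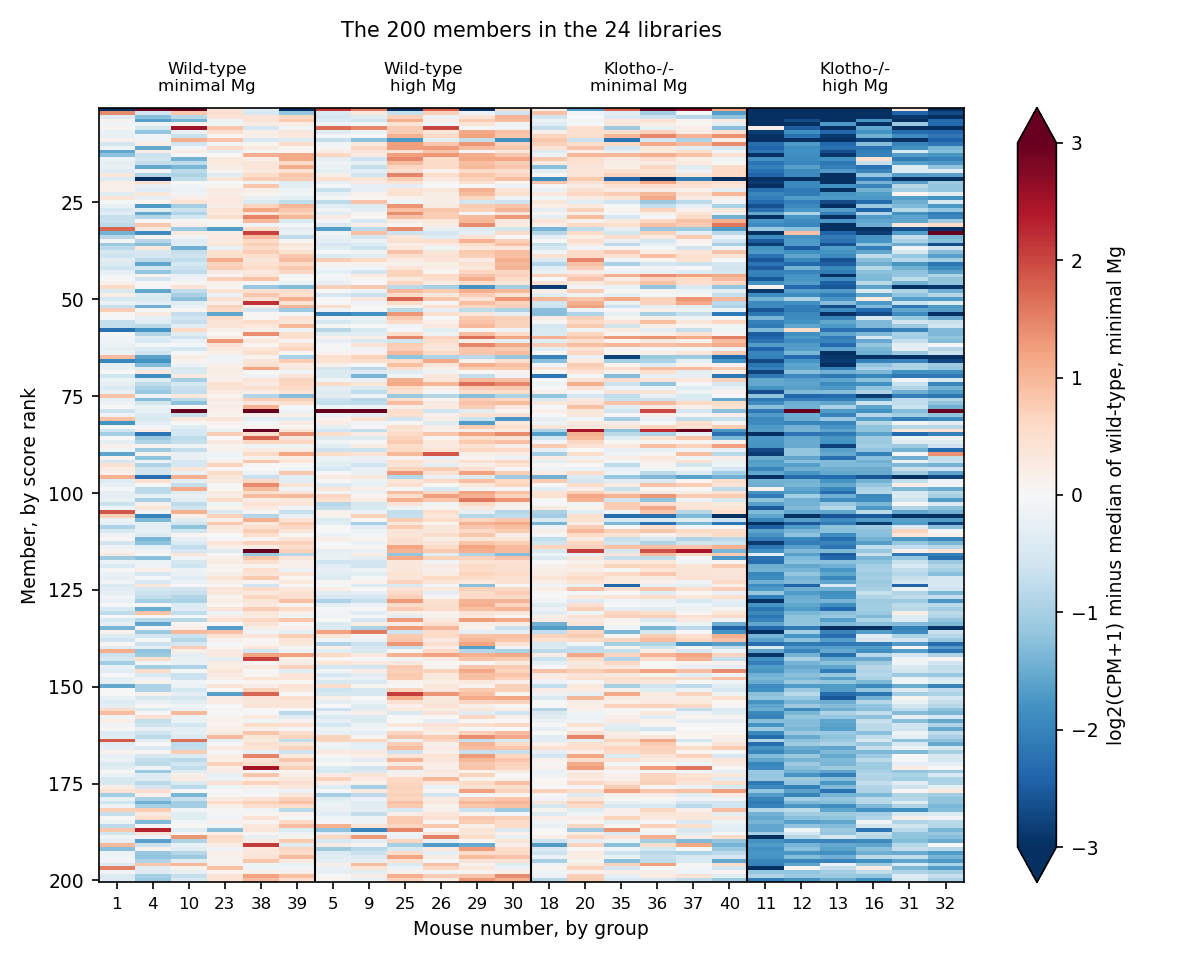
The 200 members (rows, by score rank) in the 24 libraries (columns, by group and mouse number), coloured by log2(CPM + 1) minus the gene's median in wild-type mice on minimal magnesium, with the scale ending at 3 in each direction. The 6 columns of Klotho-/- mice on high magnesium are blue over nearly the whole height and palest in mouse 31, and a few rows are uneven within several groups.

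The member of highest score, MGP_C57BL6NJ_G0040787, was also uneven within every group. Its level in wild-type minimal mice was 2.34, 6624, 8016, 1094, 664 and 42.0 CPM (mice 1, 4, 10, 23, 38 and 39). In wild-type high mice it was 3701, 2554, 51.1, 2962, 40.3 and 1219 CPM (mice 5, 9, 25, 26, 29 and 30), and in Klotho-/- minimal mice 939, 265, 2888, 6912, 5463 and 1932 CPM (mice 18, 20, 35, 36, 37 and 40). In Klotho-/- high mice it was 30.0, 3.02, 0.339, 28.2, 1106 and 0.734 CPM (mice 11, 12, 13, 16, 31 and 32). The groups therefore overlap: mouse 31 exceeded 8 of the 18 other mice, and mouse 1 lay below 4 of the 6 Klotho-/- high mice. The group means were 2740 ± 3598, 1755 ± 1550, 3067 ± 2616 and 195 ± 447 CPM (SD, n = 6 each, the last in Klotho-/- high mice), with an SD above the mean in 2 of the 4 groups. The gene has 1 transcript in the tables.

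The member of rank 2, MGP_C57BL6NJ_G0023282, separated the groups without overlap. Its level was 93.3, 22.7, 60.6, 48.6, 24.1 and 14.9 CPM in wild-type minimal mice, 25.3, 43.2, 20.7, 57.1, 30.1 and 22.0 CPM in wild-type high mice, and 64.1, 32.2, 27.4, 16.1, 33.7 and 10.3 CPM in Klotho-/- minimal mice, with the mice in the same order as before. In Klotho-/- high mice it was 1.10, 3.32, 0.649, 0.906, 5.73 and 4.54 CPM, counts of 7 to 90 reads. The fitted level was 18.3-fold, 13.6-fold and 11.0-fold lower than in wild-type minimal, wild-type high and Klotho-/- minimal mice. These differences were used by the choice of members and are given as sizes with no test.

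The member of rank 3 lay even further apart at a low level. It ran from 5.39 to 22.6 CPM in wild-type minimal mice (median 15.0), from 9.82 to 30.3 CPM in wild-type high mice (median 16.0) and from 5.81 to 14.4 CPM in Klotho-/- minimal mice (median 9.11). In Klotho-/- high mice it was 0.255, 0.804, 0.278, 0.227, 1.08 and 0.530 CPM, which rests on 3 to 17 counts per library. The member of rank 4 stood at medians of 160, 226 and 181 CPM in the same order of groups against 21.3 CPM in Klotho-/- high mice, whose highest value, 45.6 CPM in mouse 16, lay just under the 51.0 CPM of mouse 4.

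The member of rank 5 was nearly constant in the other 3 groups, at 9.12 ± 1.29, 9.35 ± 2.12 and 8.92 ± 1.80 CPM (SD, n = 6 each). In Klotho-/- high mice it had no count in mice 11, 12 and 16, where 3 counts would be 0.226 to 0.302 CPM, and stood at 1.95, 3.51 and 0.957 CPM in mice 13, 31 and 32. Rank 6 was uneven in the manner of rank 1. It reached 545 CPM in mouse 10 and 107 CPM in mouse 11 of the Klotho-/- high group, within the range of the other mice, although the other 5 mice of that group lay between 2.59 and 31.0 CPM.

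The members of rank 7 and 10 had tight values in Klotho-/- high mice. Rank 7 stood at 4.96 ± 1.59 CPM there, against 26.5 ± 9.49, 38.7 ± 15.5 and 35.9 ± 5.23 CPM in wild-type minimal, wild-type high and Klotho-/- minimal mice (SD, n = 6 each). Rank 10 stood at 3.81 ± 1.47 CPM, against 16.9 ± 5.39, 30.1 ± 11.1 and 33.1 ± 8.45 CPM. Its transcript is only 141 bases long in the tables. Both were free of overlap with the other 18 mice, as was rank 9, at 1.61 ± 1.10 CPM against 27.5 ± 13.6, 10.6 ± 4.62 and 18.0 ± 12.4 CPM.

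The 5 most abundant members, by mean CPM over all libraries, were those of rank 14, 15, 166, 8 and 114. Rank 8 had both a high level and a high score. It was 2156, 2392, 1585, 2641, 2882 and 3108 CPM in wild-type minimal mice, 2416, 2435, 5158, 3806, 5799 and 4474 CPM in wild-type high mice, and 3911, 3623, 4993, 6816, 5182 and 6357 CPM in Klotho-/- minimal mice. In Klotho-/- high mice it was 258, 534, 339, 930, 683 and 571 CPM. Every one of these 6 values lay below every other. The fitted level was 4.7-fold, 7.85-fold and 8.79-fold lower than in wild-type minimal, wild-type high and Klotho-/- minimal mice. The choice of members used these differences, so they are sizes with no test.

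The members of rank 14 and 15 each had 1 Klotho-/- high mouse apart from the other 5. Rank 14 stood at 6596 CPM in mouse 16 and between 1088 and 1354 CPM in the other 5, against medians of 4784, 8739 and 6188 CPM in wild-type minimal, wild-type high and Klotho-/- minimal mice. Rank 15 stood at 2568 CPM in mouse 16 and between 908 and 1307 CPM in the other 5, against medians of 4188, 6490 and 4963 CPM. Mouse 16 thus lay within the range of the other groups for both. Rank 114 ran from 443 to 1202 CPM in Klotho-/- high mice and from 1197 to 4596 CPM in the other 18, so they overlapped at the edge. Rank 166 ran from 843 to 2604 CPM against 1753 to 5498 CPM, and 3 of its 6 Klotho-/- high mice lay within the range of the others.

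**Figure D3:**
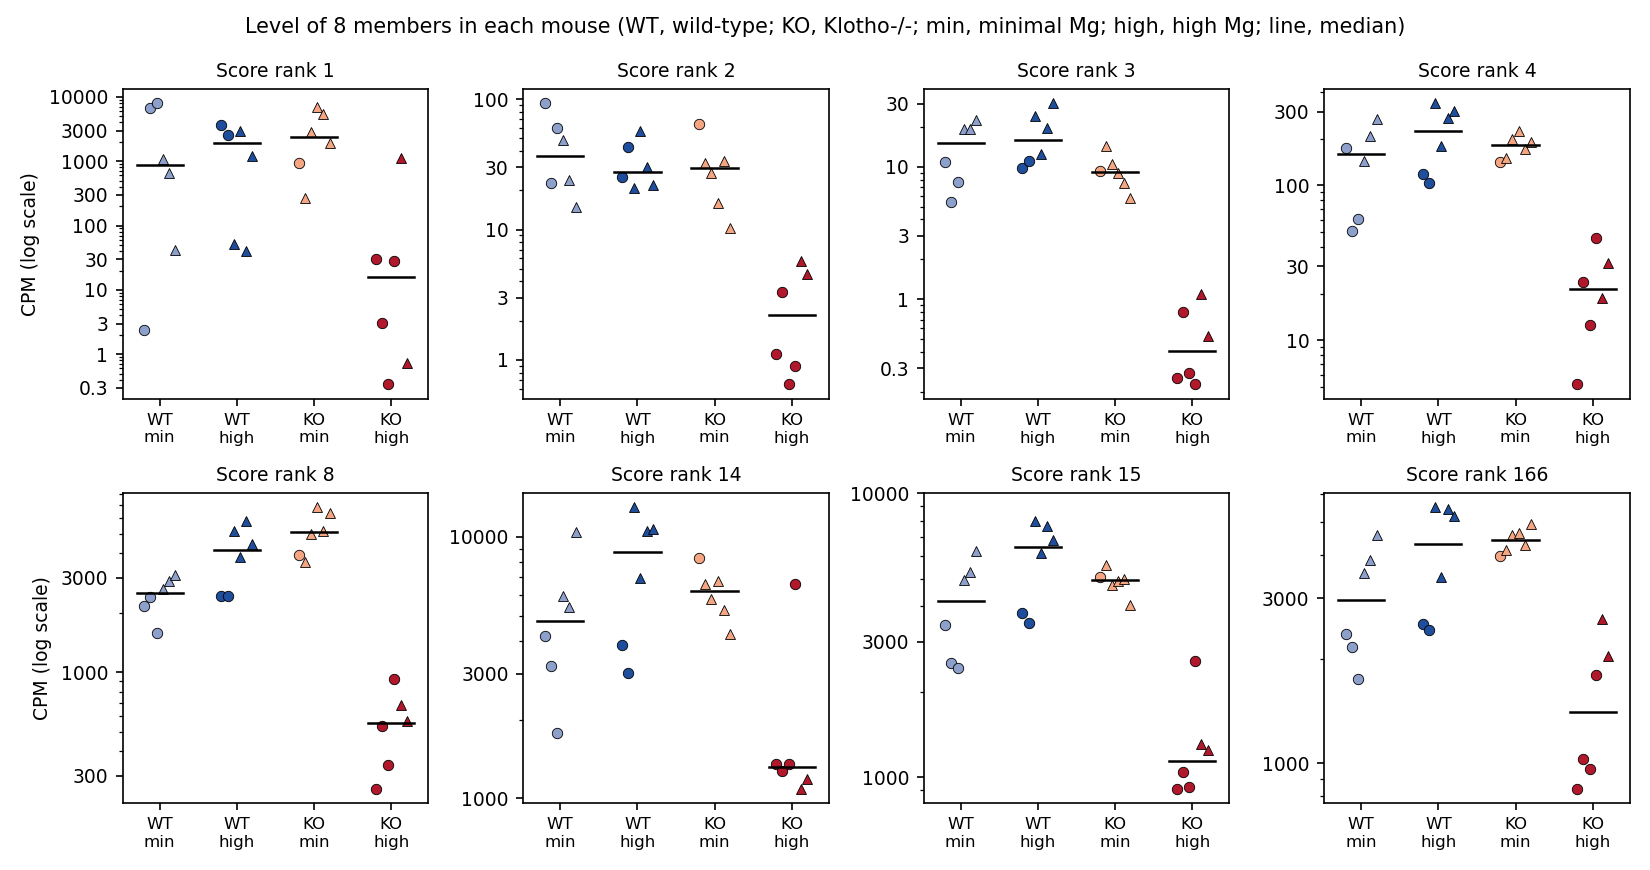
CPM on a log scale (vertical axis, its range set for each panel) of 8 members in each mouse of the 4 groups; points are mice (circles, mice 1 to 18; triangles, mice 20 to 40) and lines are group medians. Ranks 2, 3, 4 and 8 leave a gap between Klotho-/- mice on high magnesium and all others, whereas ranks 1, 14, 15 and 166 overlap.

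The members were spread over a wide range of abundance. Averaged over the other 18 mice, 40 members lay under 10 CPM, 96 from 10 to 100 CPM, 54 from 100 to 1000 CPM and 10 at 1000 CPM or more, with median scores of 1.22, 1.26, 1.32 and 1.52. The 10 most abundant carried 3.31% of all counts in the other 18 mice and 0.889% in Klotho-/- high mice. Without the 5 most abundant the summed share was 2.82% ± 0.592, 3.47% ± 0.670 and 3.21% ± 0.444 in the other 3 groups and 0.955% ± 0.307 in Klotho-/- high mice (SD, n = 6 each). Some library lacked a count for 13 members, and the other 187 had a count in all 24 libraries.

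The members did not share an order among the other 3 groups. The next lowest median was that of wild-type minimal mice for 98 members, of Klotho-/- minimal mice for 79 and of wild-type high mice for 23. The highest median was that of wild-type high mice for 110 members, of Klotho-/- minimal mice for 59 and of wild-type minimal mice for 31. The 3 medians lay within 0.5 of each other on the log2 scale for 89 members and within 1 for 172. Because every member scored at least 1, the choice itself makes these 3 groups closer to each other than to Klotho-/- high mice in those 172.

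**Figure D4:**
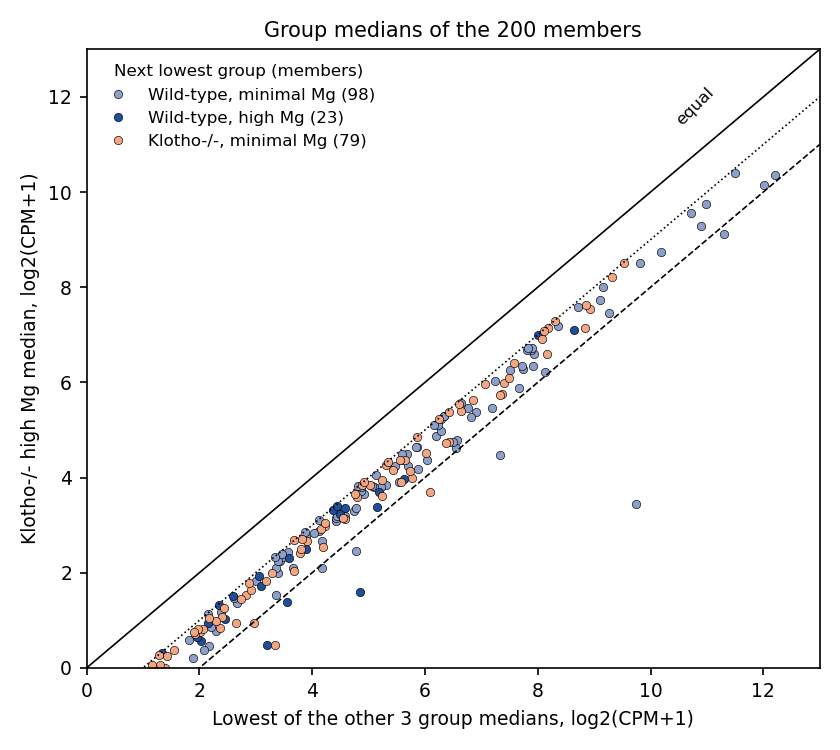
Median log2(CPM + 1) in Klotho-/- mice on high magnesium (vertical axis) against the lowest of the other 3 group medians (horizontal axis) for each of the 200 members, coloured by which group gave that lowest median. The solid line marks equal medians and the dotted and dashed lines mark scores of 1 and 2; all points lie at or below the dotted line by the choice of members, and rank 1 stands apart at the lower right.

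Members varied more between mice of a group than genes did in general, which the choice of members can favour. The same mice entered that choice, so the spread describes the members only. The median SD of log2(CPM + 1) was 0.62 for members and 0.36 for all genes tested in wild-type minimal mice, 0.49 and 0.25 in wild-type high mice, 0.36 and 0.26 in Klotho-/- minimal mice, and 0.60 and 0.36 in Klotho-/- high mice. Members also differed by mouse number. Mice 20 to 40 stood above mice 1 to 18 of the same group by a median over members of 0.71 (wild-type minimal, 3 against 3 mice), 0.70 (wild-type high, 4 against 2), 0.27 (Klotho-/- minimal, 5 against 1) and 0.61 (Klotho-/- high, 2 against 4) on the log2 scale. The corresponding medians over all genes tested were 0.04, 0.14, 0.03 and 0.28. The 2 sets of mouse numbers also differed in depth, with 9947455 to 13244722 counts in mice 1 to 18 and 13216120 to 18926802 in mice 20 to 40. Their part in the members' low level in Klotho-/- high mice was not tested. For the comparisons tested below, fits with a term for the 2 sets are given there.

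Since 4 of the 6 Klotho-/- high mice carry low numbers, the difference was also taken within each set, as the median over members of the difference in mean log2(CPM + 1). Over all mice it was -1.38 against wild-type minimal, -1.63 against wild-type high and -1.48 against Klotho-/- minimal mice. Within mice 1 to 18 it was -1.25, -1.47 and -1.48, and within mice 20 to 40 it was -1.31, -1.52 and -1.16. Without mice 4 and 20 it was -1.49, -1.63 and -1.39. The medians over all genes tested ran from -0.16 to 0.20 in these comparisons. All of these mice also entered the choice of members, so these values describe the members and support nothing further.

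Diet in wild-type mice was tested separately, since the choice of members used those groups only through the smallest median. No member changed at an adjusted p below 0.05 in edgeR's quasi-likelihood test (0 of 200, beside 0% of all 16741 genes tested), with or without mice 4 and 20 (again 0 of 200 and 0%). At an unadjusted p below 0.05 there were 24 members, 22 higher and 2 lower on high magnesium, which is 12.0% beside 7.88% of all genes. The DESeq2 test called 2 members, both higher, beside 1.28% of all genes, of which 6 were higher and 208 lower. The limma-voom test called 0, beside 0% of all genes. The median log2 fold change of the members was 0.33, with 160 of 200 above 0, beside -0.04 over all genes. It was 0.25 within mice 1 to 18 and 0.17 within mice 20 to 40. Among wild-type mice, 4 of 6 on high magnesium have high numbers and 3 of 6 on minimal magnesium. Members stood higher in such mice, as given above. With a term for the 2 sets of mouse numbers the edgeR median was 0.25, with 149 of 200 above 0, beside -0.03 over all genes. That fit had 37 members at an unadjusted p below 0.05, or 18.5%, beside 1399 of 16741 genes. After adjustment it called 0 members and 0 genes. The cause of the shift was not tested.

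Neither printed identifier differed with diet beyond its spread in wild-type mice. Rank 1 (MGP_C57BL6NJ_G0040787) had a log2 fold change of -0.53 (SE 1.51) and an edgeR adjusted p of 0.934. Rank 2 (MGP_C57BL6NJ_G0023282) had -0.42 (SE 0.50) and an adjusted p of 0.839. The values over all members ran from -2.04 (SE 0.96) for rank 84 to 1.09 (SE 0.36) for rank 72, with edgeR adjusted p of 0.621 and 0.365. Rank 72 went from 17.0 ± 6.74 to 35.8 ± 12.3 CPM (SD, n = 6 each). Rank 84 was set by 1 mouse at 118 CPM in the minimal group, which had a median of 5.45 CPM.

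Loss of Klotho on minimal magnesium was the other comparison tested. Here the choice of members removed genes that stand highest in Klotho-/- minimal mice, so the upper side is trimmed. No member was called by edgeR (0 of 200, beside 0.824% of all genes tested). At an unadjusted p below 0.05 there were 25 members, 14 higher and 11 lower, which is 12.5% beside 21.4% of all genes. The median log2 fold change was -0.10, beside -0.02 over all genes. It was 0.03 within mice 1 to 18, where the knockout group is 1 mouse, and -0.31 within mice 20 to 40. With a term for the 2 sets of mouse numbers it was -0.22, with 140 of 200 below 0, beside -0.03 over all genes. That edgeR fit called 0 members, beside 37 of 16741 genes. The DESeq2 test called 8 members (5 higher, 3 lower), which is 4.0% beside 4.79% of all genes. The limma-voom test with library weights called 41 (7 higher, 34 lower), which is 20.5% beside 33% of all genes. On mice 20 to 40 alone edgeR called 5, which is 2.5% beside 4.28% of all genes.

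The count turned on mice 4 and 20. Both were singled out for lying nearer to the other genotype's mean on this diet. Leaving them out therefore favours calls in this comparison, and the p-values of such fits do not allow for that. Over all genes tested, edgeR's calls rose from 138 with all mice to 4061 without these 2. Without mouse 4 alone edgeR called 11 members, which is 5.5% beside 12.8% of all genes. Without mouse 20 alone it called 16, which is 8.0% beside 8.98%, and without mouse 13 alone 2, which is 1.0% beside 0.968%. Without mice 4 and 20 it called 31 of 200 members, beside 24.1% of 16829 genes tested, so the share of members called (15.5%) was below that of all genes. Of these, 26 were lower in Klotho-/- mice (10.5% of all genes) and 5 higher (13.6% of all genes). The median of all members was then -0.32, with 139 of 200 below 0, beside 50.5% of all genes. The 26 had a median log2 fold change of -1.17, and for all 26 the Klotho-/- minimal group was the next lowest. That order follows largely from the choice of members and from the call itself.

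The largest of these differences was that of rank 19, at -2.96 (SE 0.45, edgeR adjusted p = 0.000175 without mice 4 and 20). The smallest edgeR adjusted p was that of rank 195, 9.42e-05, at -1.35 (SE 0.19). The median level of rank 19 was 266 CPM in wild-type minimal, 389 in wild-type high, 53.7 in Klotho-/- minimal and 14.9 in Klotho-/- high mice. With all mice its wild-type minimal values ran from 28.8 to 438 CPM and its Klotho-/- minimal values from 16.0 to 445 CPM, so the ranges overlap. The lowest of the former was mouse 4 and the highest of the latter mouse 20. Measured from the wild-type minimal median in log2(CPM + 1), the other wild-type minimal mice lay at -0.76 or above. The other Klotho-/- minimal mice lay at -1.85 or below. The 5 members called higher ran the other way, with the largest value in rank 60, at 1.01 (SE 0.31, edgeR adjusted p = 0.025). That abundant member had medians of 1159, 2218 and 2682 CPM in wild-type minimal, wild-type high and Klotho-/- minimal mice and 433 CPM in Klotho-/- high mice. Neither member printed by identifier was called. Without mice 4 and 20, rank 1 (MGP_C57BL6NJ_G0040787) had a log2 fold change of 0.60 (SE 1.67) and rank 2 (MGP_C57BL6NJ_G0023282) of -0.90 (SE 0.54), with edgeR adjusted p of 0.84 and 0.243. With all mice the values were -0.02 (SE 1.51) and -0.74 (SE 0.50), with edgeR adjusted p of 0.997 and 0.411.

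Most genes give rise to several transcripts, and the deposited tables estimate each of them. Among the members 64 have 1 transcript in the tables and 136 have 2 or more. Of the 432 member transcripts that averaged 1 CPM or more over the other 18 mice, 402 (93.1%) had their lowest median in Klotho-/- high mice, beside 30.5% of the transcripts of all genes tested, which again follows from the choice. In 175 members every such transcript was lowest there. The transcript that led by TPM in the other 18 mice also led in Klotho-/- high mice in 121 of the 136, and its share of the gene moved by under 10 percentage points in 89 and by over 20 points in 11.

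The share of a gene's reads that goes to each transcript was not itself part of the choice and was tested. The counts of Klotho-/- high mice entered both, however. A fall of the leading transcript alone can lower a gene's total and also shift its usage. These tests are therefore not independent of the choice of members. In edgeR's test of transcript usage, 6 of 116 members with at least 2 transcripts passing the filter differed between Klotho-/- high and Klotho-/- minimal mice (1.49% of all 9101 genes tested), and limma's test called 4 (1.65% of all genes), with 4 called by both. Between Klotho-/- high and wild-type high mice edgeR called 11 of 116 (8.22% of all genes) and limma 10 (9.97%), with 5 called by both. Both comparisons use the same Klotho-/- high mice. The edgeR counts are 5.17% and 9.48% of the members tested. The deposited estimates carry no error for the splitting of reads between transcripts, so these p-values leave it out.

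The second count moved with the fit. Without mice 4 and 20 it was 16 of 117 members, or 13.7% beside 9.02% of all genes, and with a term for the 2 sets of mouse numbers 19 of 116, or 16.4% beside 10.8%. Without mouse 32 it was 5 of 119, or 4.20% beside 6.3%. It was 3 with the Simes test, or 2.59% beside 3.15%, and 7 of 108 with transcripts of at least 10 counts on average, or 6.48% beside 8.27%. The member share thus lay above that of all genes in some fits and below it in others. The first count was 6 of 117 without mice 4 and 20 (1.51% of all genes) and 3 of 119 without mouse 32 (1.24% of all genes).

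By both tools in both comparisons, 2 members were called, those of rank 121 and 174. Rank 174 has a transcript of 2192 bases that held 88.9% ± 6.65, 93.5% ± 3.15 and 89.0% ± 4.16 of the gene's TPM in wild-type minimal, wild-type high and Klotho-/- minimal mice and 48.9% ± 18.8 in Klotho-/- high mice (SD, n = 6 each). In TPM, that transcript stood at 23.7 ± 6.87, 38.7 ± 10.1 and 28.8 ± 7.93 against 5.54 ± 2.19. The other transcript, of 2324 bases, stood at 2.93 ± 1.61, 2.47 ± 0.895 and 3.33 ± 0.834 against 5.81 ± 2.17 TPM, so it was highest where the gene was lowest. The edgeR adjusted p was 0.000104 against Klotho-/- minimal and 2.89e-07 against wild-type high mice, and the call held in all 29 fits run for each comparison, with adjusted p of at most 0.000906 and 4.85e-06.

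In rank 121 both transcripts were lowest in Klotho-/- high mice, but to a different degree. The leading one, of 2208 bases, stood at 12.7 ± 3.73, 17.1 ± 3.62 and 15.6 ± 3.34 TPM in the other groups and 2.28 ± 0.900 TPM in Klotho-/- high mice (SD, n = 6 each). The second, of 2720 bases, stood at 6.38 ± 2.90, 6.97 ± 3.93 and 9.70 ± 1.04 against 4.06 ± 1.63 TPM. The share of the leading transcript was 67.2% ± 7.25, 73.0% ± 9.31, 61.2% ± 5.52 and 36.7% ± 10.8. The 6 Klotho-/- high mice ran from 23.1% to 50.7%, below the lowest mouse elsewhere at 55.7%. The edgeR adjusted p was 0.022 against Klotho-/- minimal and 9.23e-05 against wild-type high mice. The latter call held in all 29 fits, and the former in 26 of 29, with adjusted p from 0.00376 to 0.0837.

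**Figure D5:**
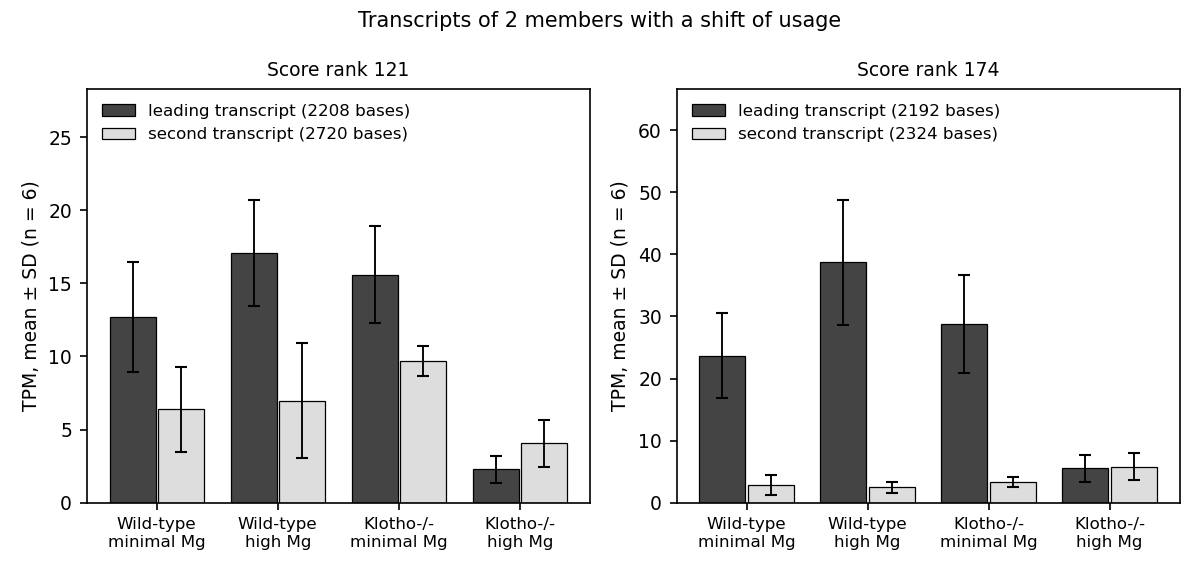
TPM (vertical axis, from 0) of the leading (dark) and second (light) transcript of the members of rank 121 and 174 in the 4 groups; bars are means and error bars are SD (n = 6). In rank 174 the second transcript reaches 5.81 TPM in Klotho-/- mice on high magnesium, the level of the leading one, and in rank 121 the second exceeds the leading one in that group alone.

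The tables also give the length and number of transcripts. The members' count-weighted transcript length had a median of 2803 bases (quartiles 1889 and 4120), beside 2440 bases (1453 and 3767) over all genes tested, and the median number of transcripts per gene was 3 in both. The members' mean level in the other 18 mice was higher, with a median of 41.1 CPM beside 18.8 CPM, and a score of 1 on the CPM + 1 scale cannot be reached by genes near 0 CPM.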

How the data were processed

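RNA of the thoracic aorta of 24 mice was sequenced. The submitters' processing notes name FastQC, Salmon and mm10 without versions. Each table deposited by the authors holds, per the file headers, an estimated count of reads and a TPM value for 102919 transcripts of 41012 genes. For the tests, the deposited estimated counts were rounded after summing per gene, and no library total moved by more than 0.0017%. The authors' TPM values were used for shares within a gene and for 1 alternative. Salmon divides reads among similar sequences by a model, so levels of members with near copies are uncertain.

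CPM is counts per 1000000 counts of the library. In edgeR 4.0.16 (R 4.3.3), 1 quasi-likelihood model with a mean for each of the 4 groups was fitted to all 24 libraries, after TMM scaling and filterByExpr, which left 16741 genes. Every p was adjusted over all genes tested (Benjamini-Hochberg) and called below 0.05. Transcript usage was tested with edgeR's gene-level F test, which on simulated counts made more false calls than its threshold allows, so limma 3.58.1 (diffSplice on voom values), added after seeing the data, stands beside it. DESeq2 1.42.0 and limma-voom were alternatives, with other scalings, filters and left-out mice. The fits to mice 1 to 18 and to mice 20 to 40 were also added after seeing the data.

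The members and lists were chosen with earlier results of these data known. The rule for named genes was the 2 members of highest score with a mean of at least 10 CPM, with other members given by rank. Which further members to show (ranks 3 to 10, 33 and 79, the 5 most abundant, the extremes of a comparison) was decided after their values were seen. Gene lists and cell type markers need symbols and are not analysed here.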

Additional observations from a re-analysis of the deposited data

Results flagged for a closer look

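Dixon's criterion was applied to 60 sets of 6 values, those of the members shown mouse by mouse and of their summed share. In 5 sets 1 library stood apart from the rest of its group. Chance gives about 1 in 20 for independent, normally distributed values. The 60 sets share libraries and some are strongly uneven, so that rate is only a rough guide. In Klotho-/- mice on high magnesium, the member of rank 1 (MGP_C57BL6NJ_G0040787) stood at 1106 CPM in mouse 31 and between 0.339 and 30.0 CPM in the other 5. The member of rank 6 stood at 107 CPM in mouse 11 and between 2.59 and 31.0 CPM in the other 5, and in wild-type mice on minimal magnesium at 545 CPM in mouse 10 and between 63.8 and 166 CPM in the other 5. The 2 most abundant members were high in mouse 16 of the Klotho-/- group on high magnesium: rank 14 stood at 6596 CPM against 1088 to 1354 CPM, and rank 15 at 2568 CPM against 908 to 1307 CPM.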

How the results depend on the processing

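Of 422 alternative values, 403 kept their direction and size by the criteria used and 19 did not. All 19 belonged to the main results, for which 271 values were kept. The other 132 kept values belonged to further results. Of the 200 members, the rule found again 159 with group means, 176 with TMM-scaled totals, 159 with a pseudocount of 0.25, 170 without mice 4 and 20, 169 to 192 when each mouse was left out in turn, and 126 with TPM in place of CPM. Without the 5 most abundant members the summed share was 2.82%, 3.47%, 3.21% and 0.955% in wild-type minimal, wild-type high, Klotho-/- minimal and Klotho-/- high mice. For diet in wild-type mice DESeq2 called 2 members (1.28% of all genes). For Klotho loss on minimal magnesium DESeq2 called 8 (4.79% of all genes), limma-voom 41 (33%), edgeR without mice 4 and 20 31 (24.1%), and edgeR on mice 20 to 40 alone 5 (4.28%), against 0 to 16 when each mouse was left out (11 without mouse 4, 16 without mouse 20 and 2 without mouse 13, beside 12.8%, 8.98% and 0.968% of all genes). For transcript usage against wild-type high mice the count was 3 with the Simes test (3.15% of all genes), 7 with a mean of at least 10 counts (8.27%) and 19 with a term for the 2 sets of mouse numbers (10.8%), and 5 to 15 when each mouse was left out (5 without mouse 32, beside 6.3%). Against Klotho-/- minimal mice it was 3 to 6 (3 without mouse 32, beside 1.24%). Within mice 20 to 40 the median difference between Klotho-/- high and Klotho-/- minimal mice was -1.16. The cause of these shifts was not tested. No paired analysis was possible because every mouse number belongs to a single mouse, so the groups share none. Between 9947455 and 18926802 counts per library, members under 1 CPM rest on fewer than 20 counts.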
